A study of Mus musculus with 1 sample.

Results

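The S100 proteins, annexins and galectins other than galectin-1 were examined in ovarian surface epithelial cells, the covering layer of the ovary, from wild-type mice. Genes were chosen by symbol alone: a probe set with a single gene symbol of the S100a series, S100b, S100g, S100p or S100z, of the annexin series, of Lgals2 to Lgals9, or Lgals12 or Lgals3bp. This gave 32 genes with 52 probe sets, of 18193 genes with 34945 probe sets on the array: 13 S100 genes, 11 annexins and 8 genes of the galectin group. One Affymetrix expression array was hybridised with total RNA of wild-type animals aged 3 months. The labels give no strain, no culture step, no number of animals and no way in which the cells were taken from the ovary. The series design names 3 genotypes. Only the wild-type sample was analysed here, so there is no comparison between genotypes, no replicate, no test and no error on any level. Where a cell type is rare in the preparation, fewer cells and less RNA per cell cannot be told apart.

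S100 proteins are small proteins with paired EF-hands, a helix-loop-helix fold that holds calcium. They mostly pair with each other and, once calcium is bound, attach to targets inside the cell or, after release, to surface receptors. Annexins bind acidic membrane lipids when calcium rises and take part in membrane repair, vesicle traffic and the anchoring of actin to membranes. Several S100 proteins dock on an annexin, the best known pair being S100a10 with Anxa2. Galectins bind galactose-containing glycans on cell surface and matrix proteins and also mark damaged endosomes. Mesothelial-type epithelia, which meet friction and rupture, are a tissue in which membrane repair and calcium-regulated adhesion are of interest.

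The array values are intensities on a linear scale, from 6 to 32341 with a median of 41 over 45101 probe sets. The background was taken from 126 probe sets of genes with no known place in the ovary, namely those of smell, pheromone and bitter taste receptors and of hair keratin-associated proteins. Its 95th percentile, an intensity of 46.5, served as the limit, and a gene whose brightest probe set lay higher was called above background. A second mark was set at 10 times that limit, an intensity of 465. Probe sets differ in affinity, so an intensity says whether a gene stood above background and by how much on that probe set, and levels of different genes are not ranked. The marker lists were chosen with earlier results of these data known, so their counts are no independent support for cell identity. Over all genes 62.8% were above the limit, the share to set beside each marker count. All 8 listed markers of surface epithelium and mesothelium were above the limit, with levels from 2047 to 20836, Krt8 at 4573, Krt18 at 3377 and Krt19 at 4897 among them. Calb2, a mesothelial marker outside the list, had 31, below the limit. Fibroblast markers were all above the limit, 5 of 5 with Col1a1 at 8290, Dcn at 15048 and Pdgfra at 916. The same held for 5 of 5 smooth muscle markers, with Acta2 at 23141, Tagln at 22357 and Myh11 at 764. None of 5 endothelial markers was above it, the highest of them at 23, with Pecam1 at 14, Cdh5 at 23 and Tek at 21.

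Of the 32 genes 23 were above background, or 71.9%, beside 62.8% of all 18193 genes. The share over all genes depends on the number of probe sets: 47.3% of genes with 1 probe set and 78.7% of genes with several were above the limit. Among the members, 11 of 18 with 1 probe set (61.1%) and 12 of 14 with several (85.7%) were. Of their 52 probe sets 38 were above the limit, or 73.1%, beside 55.1% of all probe sets. A total of 18 of 32 (56.2%) exceeded 10 times the limit, beside 29.1% of all genes, and the median of their brightest probe sets was 9.74 on the log2 scale beside 7.06 over all genes. With the lowest probe set in place of the brightest, 10 members exceeded 10 times the limit, beside 12% of all genes. These shares and medians describe 1 array and, since probes differ in affinity, rank no gene.

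**Figure D1:**
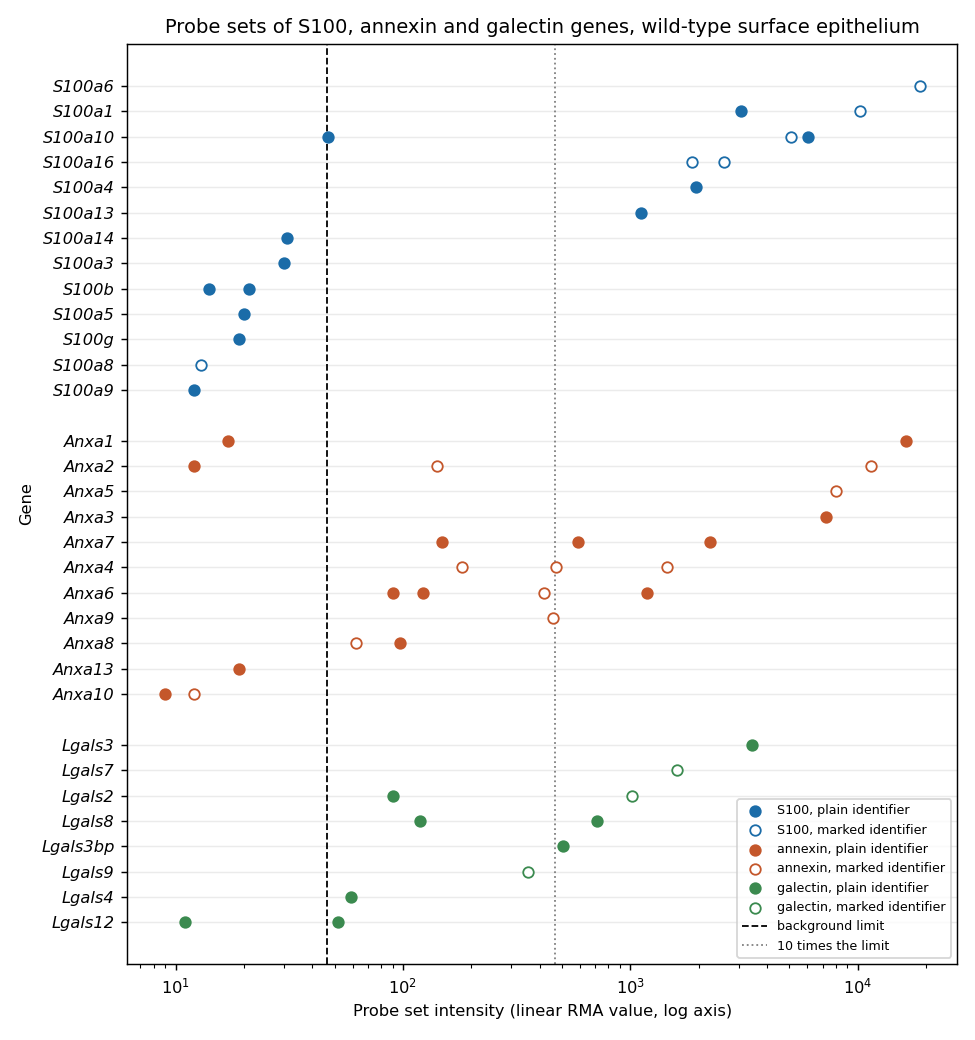
Intensity of each of the 52 probe sets (log axis) by gene, grouped as S100 genes, annexins and galectins and sorted within a group by the brightest probe set. Filled points are plain identifiers, open points identifiers marked _a, _s or _x, and the lines stand at 46.5 and at 10 times that; no S100 gene has its brightest probe set between the lines.

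The groups were divided differently. All 8 galectin-group genes and 9 of 11 annexins were above the limit, against 6 of 13 S100 genes (46.2%), beside 62.8% of all genes. The S100 genes had fewer probe sets: 9 of 13 had a single one, of which 3 were above the limit, while 4 of 11 annexins had a single one, of which 3 were, and 5 of 8 in the galectin group, of which all were. The S100 genes fell into separate sets: the 6 above the limit were all at least 24 times the limit, and the other 7 were all below it, at 31 or less. No S100 gene lay between the limit and 10 times the limit, a range that held 33.8% of all genes, 2 of 11 annexins and 3 of 8 galectin-group genes. The differences between these groups were not tested.

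**Figure D2:**
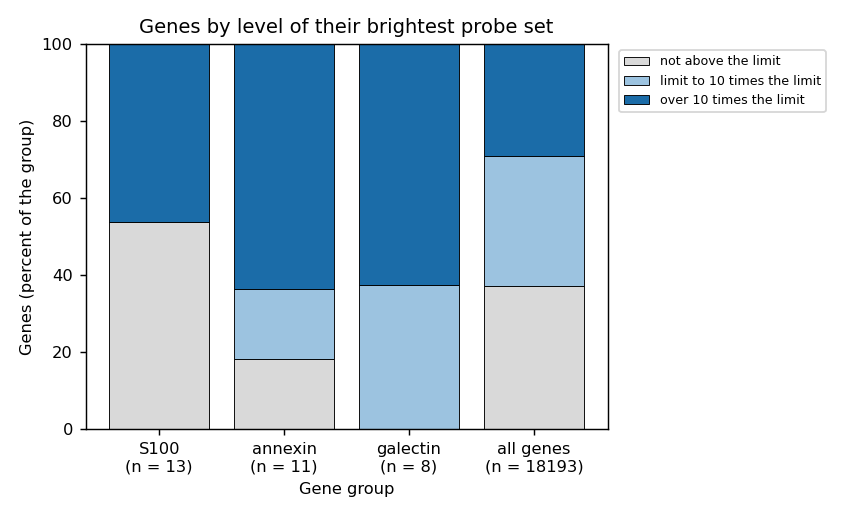
Percent of genes whose brightest probe set was not above the limit, between the limit and 10 times the limit, or over 10 times the limit, for 13 S100 genes, 11 annexins, 8 galectin-group genes and all 18193 genes. The middle class is empty for the S100 genes, and the lowest class is empty for the galectin group.

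The expressed set was made up of 6 S100 genes, S100a1, S100a4, S100a6, S100a10, S100a13 and S100a16. S100a6, also called calcyclin and a protein of growing epithelial and stromal cells, had its only probe set at 18733, or 403 times the limit. S100a1, best known from heart and skeletal muscle where it acts on calcium release and uptake, had probe sets at 3070 and 10198. Both stood far above the limit, and their SD was 1.22 on the log2 scale. S100a16, a broadly expressed member, had 1869 and 2572, the closest agreement among the expressed S100 genes with several probe sets. S100a4, or metastasin, which binds non-muscle myosin and is often used as a fibroblast marker, had 1953 on its only probe set. Its level stood beside fibroblast markers that were all above the limit, and the part of such cells in it was not tested. S100a13, which assists the release of growth factors that lack a secretion signal, had 1116.

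S100a10, also called p11, has lost the ability to bind calcium and holds Anxa2 in a complex at the inner face of the membrane. Its 3 probe sets had intensities of 47, 5107 and 6062. The lowest lay at the limit of 46.5, and the others stood at 109.8 and 130.4 times the limit. Anxa2, its partner and a binder of actin and plasminogen, had 12, 141 and 11402. So in this pair each gene had at least 1 probe set far above background, and each had another that read near or below it. For Anxa2 the high reading rests on 1 probe set with an identifier marked _a. Without probe sets marked _a, _s or _x the level of the gene was 12, below the limit. The probe set at 11402 was also the only Anxa2 probe set annotated to a RefSeq mRNA, and those at 12 and 141 were not. Among member probe sets, 12 of 19 with such an annotation (63.2%) and 26 of 33 others (78.8%) were above the limit. The shares over all genes were 59% and 54.3%.

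The other 7 S100 genes were not above background. S100a8 and S100a9, which form calprotectin in neutrophils and inflamed epithelia, read 13 and 12. Of 7 neutrophil markers 1 was above the limit, Camp at 60, while Csf3r had 17, Cxcr2 had 20 and Ngp had 22. S100b, the S100 protein of Schwann cells and astrocytes, had 14 and 21. Among 3 measured markers of glia, Sox10 had at most 75, Mbp at most 2526 and Gfap at most 35, the first 2 of which passed the limit. S100g, the calcium buffer calbindin-D9k of gut and uterus, had 19, and S100a5, known from olfactory neurons, had 20. S100a14, a member of many lining epithelia, had 31, and S100a3, a protein of the hair cuticle, had 30. The last pair lay nearest to the limit and passed it when the limit was set at the 90th percentile of background or taken from olfactory and vomeronasal receptors alone.

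Among the annexins, 7 of 11 (63.6%) exceeded 10 times the limit, beside 29.1% of all genes. Anxa1, which dampens inflammation through formyl peptide receptors, had 16255 on 1 probe set and 17 on the other. The low value is below the limit, so the probe sets of Anxa1 give opposite calls, with an SD of 7.0 on the log2 scale. The probe set at 16255 was annotated to a RefSeq mRNA, and the one at 17 was not. The receptor gene Fpr2 had 22, below the limit. Anxa5, the phosphatidylserine binder used to stain dying cells, had 8040, and Anxa3 had 7265, each on a single probe set.

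Anxa4, Anxa6 and Anxa7 were above the limit on every probe set. Anxa7, or synexin, which fuses and aggregates vesicles, had 148, 589 and 2235. Anxa4, an annexin of secretory and absorptive epithelia, had 182, 473 and 1456. Anxa6, which carries a duplicated annexin core and acts on endosomes and cholesterol, had 90, 123, 418 and 1178. In these 3 genes the probe sets agreed on the call and differed in size by 8.00-fold to 15.1-fold.

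Anxa9, an annexin whose core has lost most of its calcium sites, had 457, just under 10 times the limit. Anxa8, an annexin of skin and other stratified epithelia, had 62 and 97, both above 46.5 by a small margin. Anxa10, an annexin of the stomach, had 9 and 12. Anxa13, found in gut and kidney epithelium, had 19. These last 2 genes were the only annexins not above the limit, and stayed so under all 9 alternatives.

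Every gene of the galectin group passed the limit, some of them narrowly. Lgals3, whose protein joins a glycan-binding domain to a flexible tail and crosslinks surface glycoproteins, had 3434. Lgals3bp, a secreted glycoprotein that galectins bind and that is no galectin itself, had 505. Lgals3 is also abundant in macrophages, and 7 of 8 macrophage markers were above the limit: Csf1r reached 527, Adgre1 47 and C1qa 244, with levels of the list from 27 to 2142. The part of macrophages in the galectin levels was not tested. Lgals9, a galectin with 2 glycan-binding domains that acts on T cells, had 353. Lgals8, of the same build and known for marking broken endosomes, had 119 and 717.

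The galectin group also held genes known from other tissues, of which Lgals4 and Lgals12 lay close to the limit. Lgals7, a galectin of stratified epithelia that has also been described as a gene induced by p53, had 1610 on its only probe set. Of 6 markers of stratified epidermis 4 passed the limit, all at 177 or less, with Krt5 at 52, Krt14 at 56 and Krt1 at 20. Lgals2, a galectin of the digestive tract, had 90 and 1021. The higher value is from a marked probe set, and without marked probe sets the gene stood above the limit by 0.99 on the log2 scale. Lgals4, another gut galectin, had 59, and Lgals12, an adipocyte galectin, had 11 and 52. Of 5 intestinal markers 1 passed, Muc2 at 88, with Vil1 at 14, Cdx1 at 16 and Cdx2 at 21. Of 4 measured adipocyte markers 1 passed, Retn at 58, with Adipoq at 11, Fabp4 at 22 and Lep at 14. Lgals4 and Lgals12 lay within 1.27 times the limit and were not above it when the limit was set at the 99th percentile or from keratin-associated proteins and taste receptors.

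Probe sets of the same gene gave readings that were spread apart in several members. Of 14 members with several probe sets, 3 had readings on both sides of the limit: Anxa1, Anxa2 and Lgals12. Over all genes this was so for 4204 of 9010. Expressed as an SD on the log2 scale, this spread had a median of 1.64 for members and of 1.39 over all genes with several. Identifiers marked as shared between transcripts or prone to cross-hybridisation made up 19 of the 52 probe sets, and 17 of these were above the limit, against 21 of 33 plain ones. Over all genes, too, marked probe sets were more often above it, 71.4% of 7953 against 50.3% of 26992 plain ones. Anxa4, Anxa5, Anxa9, Lgals7, Lgals9, S100a6, S100a8 and S100a16 had marked probe sets alone. The marks _a, _s and _x were pooled in these counts and were not examined apart.

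Most of the S100 members lie on chromosome 3, while S100b lies on chromosome 10 and S100g on the X chromosome. In the RefSeq gene table of assembly GRCm38.p6, 15 S100 genes fall in a run of 70 protein-coding genes on chromosome 3, and 11 of them are members, from S100a1 at one end to S100a10 at the other. Along this run readings above and below the limit alternated from S100a13 to S100a6. In gene order S100a1 (10198) and S100a13 (1116) were above the limit, S100a14 (31) was not, S100a16 (2572) was, S100a3 (30) was not, S100a4 (1953) was, S100a5 (20) was not, and S100a6 (18733) was. Then came S100a8 (13) and S100a9 (12), and after the intervening genes S100a10 (6062). Of 10 pairs of neighbouring members, 8 lay on different sides of the limit.

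Between S100a9 and S100a10 the run holds the epidermal differentiation genes, which encode cornified envelope and filaggrin-type proteins of skin. Of the 55 genes in the run that are no S100 genes, 36 had a probe set of their own. Of these 9 were above the limit (25%, beside 62.8% of all genes), their median was 20 and the highest, Lce3c, had 172. S100a10, beyond this stretch, read 6062. S100a11, the direct neighbour of S100a10, is given no level, since its only probe set, at 15620, is shared with the pseudogene S100a11-ps and Gm12854.

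**Figure D3:**
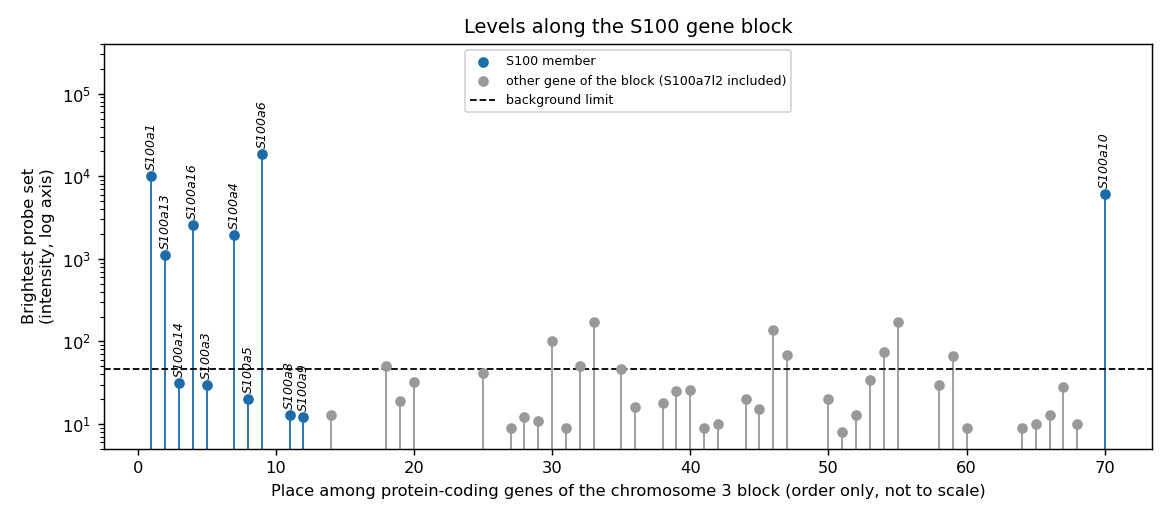
Brightest probe set (log axis) of each measured gene of the chromosome 3 run, in gene order and not to scale of distance; blue points are members, grey points other genes, and the dashed line is the limit of 46.5. Among the members readings above and below this limit alternate from S100a13 to S100a6, which at S100a14 and S100a3 depends on the limit chosen. The grey genes between S100a9 and S100a10, which leave out S100a11 and its shared probe set, stay at or under 172.

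Sequences just before the start sites of 4 members with contrasting readings, and the stretch between a pair of neighbouring starts, are shown, so that S100a6 and S100a8, which follow each other among the members of the chromosome 3 run with S100a7a between them, and Anxa1 and Anxa2 can be set side by side. They come from the RefSeq promoter table of build GRCm38.p6, which held windows for 26 of the 32 genes. Each runs 5′ to 3′ on the gene's strand over the 150 bases up to the start, and capitals mark 4 motifs read on either strand: TATAAA (the TATA box), GGGCGG (a GC box), CCAAT (the CCAAT box) and TGANTCA (the core of an AP-1 site). S100a6 is chr3:90612744-90612893 on the plus strand, S100a8 is chr3:90668921-90669070 on the plus strand, Anxa1 is chr19:20390672-20390821 on the minus strand and Anxa2 is chr9:69453533-69453682 on the plus strand.
S100a6: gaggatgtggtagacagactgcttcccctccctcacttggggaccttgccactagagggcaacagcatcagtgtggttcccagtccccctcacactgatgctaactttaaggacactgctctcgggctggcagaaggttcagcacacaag
S100a8: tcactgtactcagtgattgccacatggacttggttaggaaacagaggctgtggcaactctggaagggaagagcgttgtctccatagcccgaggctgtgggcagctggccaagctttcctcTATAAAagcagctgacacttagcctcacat
Anxa1: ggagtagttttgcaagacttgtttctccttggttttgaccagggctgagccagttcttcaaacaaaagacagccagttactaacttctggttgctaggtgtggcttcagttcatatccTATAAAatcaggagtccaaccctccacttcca
Anxa2: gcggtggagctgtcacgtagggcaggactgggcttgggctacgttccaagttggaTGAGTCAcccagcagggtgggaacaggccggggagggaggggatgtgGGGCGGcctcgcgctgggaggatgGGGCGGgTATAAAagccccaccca

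In these stretches S100a6, read at 18733, held none of the motifs. S100a8, read at 13, had TATAAA beginning 30 bases before the start. Anxa1, read at 16255, had it at 32 bases and Anxa2, read at 11402, at 17 bases, the latter with GGGCGG at 48 and 24 bases and TGANTCA at 95. A TATAAA motif was thus present before the starts of both an S100 gene below the limit and annexins far above it. A match is a string of letters and no evidence of binding.

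S100a1 and S100a13 start back to back in these windows, on opposite strands. The 104 bases between their starts, chr3:90514331-90514434 on the plus strand, held 3 CpG dinucleotides and none of the 4 motifs, and both genes were above the limit.
S100a1 and S100a13: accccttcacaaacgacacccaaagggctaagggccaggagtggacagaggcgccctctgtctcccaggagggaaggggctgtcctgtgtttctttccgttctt

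Over the full windows, from 250 bases before to 50 after a start, TATAAA was found in 8 of 33 member windows (24.2%), beside 13.6% of all 32851 windows. By gene, 5 of 7 members not above the limit had it in a window (Anxa10, S100a3, S100a8, S100a9 and S100g) and 3 of 19 above the limit had it (Anxa1, Anxa2 and S100a4). Over all genes the shares were 16.6% of those not above and 8.62% of those above. GGGCGG was found in 30.3% of member windows and 35.7% of all windows, CCAAT in 21.2% and 37.4%, and TGANTCA in 9.09% and 7.81%. S100a6, with none of the motifs in the stretch shown, had CCAAT in its full window.

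The number of CpG dinucleotides in a window, taken as the highest of a gene's windows, was low in these families. The 15 members over 10 times the limit that had a window held 2 to 20, with a median of 6. All 4323 genes of that class had a median of 24, and their lower quartile was 17. The 7 members not above the limit held 1 to 5, with a median of 3, beside 7 over all 5185 such genes. S100a6 had 6, Anxa1 3 and S100a4 2, counts at or below the median of genes not above the limit. Anxa4 had 20, Anxa7 19, Lgals3 18, Anxa5 16, S100a13 14, Anxa2 13 and S100a1 11. Anxa9, read at 457, had the highest count of the members, 36. Highly read members of these families thus included genes with few CpGs, and no test was made of the difference.

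**Figure D4:**
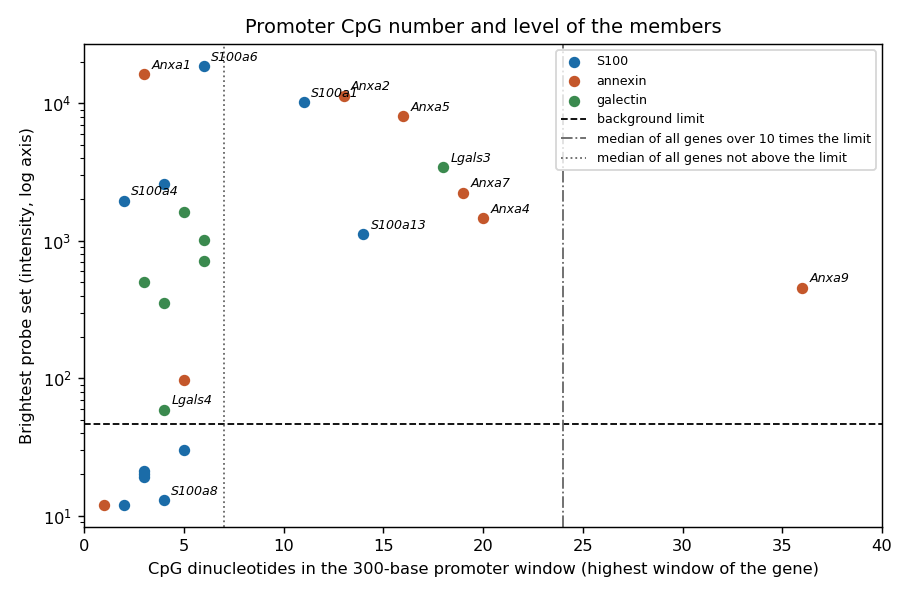
Brightest probe set (log axis) against the highest CpG count of the gene's 300-base windows, for the 26 members with a window. The vertical lines are the medians of all genes over 10 times the limit (24) and not above it (7); all members but Anxa9 lie left of the first.

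Lists of genes for binding partners, ligands, membrane repair, plasmin generation and glycan branching held 36 measured genes. Not all of these encode proteins that the families bind, and the lists were chosen with earlier results of these data known. Of the 36 genes 29 (80.6%) were above the limit, beside 62.8% of all genes. By number of probe sets, 13 of 19 with 1 (68.4%) and 16 of 17 with several (94.1%) passed, beside 47.3% and 78.7% of all such genes, and these differences were not tested. Of 10 partners of S100 proteins 8 passed, with levels from 34 to 11032. Ahnak, a giant scaffold held by the S100a10 and Anxa2 complex, reached 3559 with 3 of 4 probe sets above the limit. Ager, the receptor RAGE for released S100 proteins, had 35 and 56, the higher just above the limit. Tlr4, a receptor of calprotectin, reached 304 with 2 of 4 probe sets above it. Trpv6 and Kcnk3, channels that S100a10 brings to the membrane, had 34 and at most 39.

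Of 12 genes for annexin partners, membrane repair and plasmin generation 9 passed the limit, beside 62.8% of all genes. Their levels ran from 18 to 7375. Dysf, dysferlin, which patches torn membranes with annexins, had 93. Myof, the related myoferlin, had 14 and 1237. Besides Fpr2, Plg at 22 and Trim72 at 18 did not pass, the first the precursor of plasmin, made mainly in the liver, and the second a repair protein of muscle. Plat, tissue plasminogen activator, reached 1555, and Plgrkt, a plasminogen receptor, had 1368.

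Of 14 genes for galectin ligands and glycan branching 12 passed, beside 62.8% of all genes, with levels from 9 to 9174. Lamp1 and Lamp2, lysosomal membrane proteins whose glycans galectins bind, had 4907 and up to 9174. Mgat5, which builds the branched glycans that galectins prefer, reached 83 with 2 of 3 probe sets above the limit. Muc16, a mucin of mesothelium that binds galectins, had 2181. Havcr2, a receptor described for Lgals9 on immune cells, had 17, and Calcoco2, an autophagy receptor that Lgals8 recruits, had 9.

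**Figure D5:**
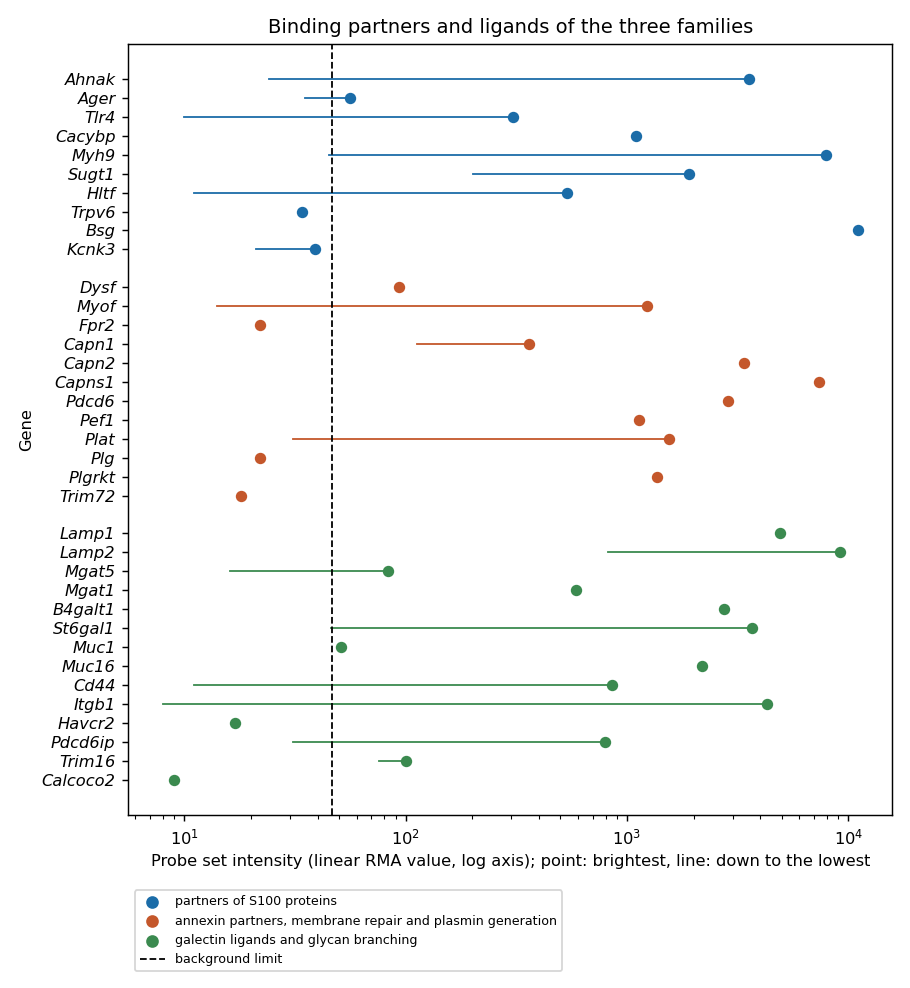
Levels of 36 genes for binding partners, ligands, membrane repair, plasmin generation and glycan branching (log axis). The point is the brightest probe set of a gene and the line reaches to its lowest. The dashed line is the limit of 46.5, and 7 of the 36 genes lie wholly below it.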

How the data were processed

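One array of the wild-type group was used. The deposited values are intensities, 1 for each probe set, and per the submitters' processing notes they were made with affy and RMA, which corrects background, normalizes between arrays and summarises probes. Versions and the arrays normalized together are not stated there. All values were whole numbers on a linear scale, and no source names the step back from log2. Rounding amounts to 0.0154 on the log2 scale at the limit.

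Probe sets were named through the platform's annotation table. Of 45101 probe sets 34945 had a single symbol, 932 had several, 9160 had none and 64 were controls. The last 3 kinds were left out, and all 32 members matched the RefSeq table by gene number. A gene's level was its brightest probe set. Every member is named, and from each list the first 3 measured genes in written order; further genes were named after their values were seen. The members and lists were chosen with earlier results of these data known. Counting was tested on made-up intensities with known answers. Alternatives were other limits, other background genes, the mean or lowest probe set, and other choices of probe sets. Tables were handled with pandas 2.3.3 and NumPy 2.4.6 in Python 3.11.15, and plots drawn with matplotlib 3.10.9.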

Additional observations from a re-analysis of the deposited data

Results flagged for a closer look

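Probe sets that the annotation pairs with several symbols entered no gene count, and 2 of them include a family symbol. The probe set paired with S100a11, its pseudogene S100a11-ps and Gm12854 had an intensity of 15620, and the one paired with Anxa11, Gm2260 and Gm2274 had 341. Both exceeded the limit of 46.5, which is what marked them here, and neither reading can be assigned to a single gene.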

How the results depend on the processing

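Of 32 members, 26 kept their side of the limit under every one of the 9 alternatives that could give them a value, 19 above and 7 not above. Without probe sets of marked identifiers 8 members had no level, Anxa4, Anxa5 and Anxa9 among them. The count of 23 members above background was then 15 of the 24 members left, and that of annexins was 5. Of the members left, Anxa2 alone changed side. In this setting 62.5% of members and 59.2% of all genes were above the limit. The 18 members over 10 times the limit became 10 when the lowest probe set stood for each gene, beside 12% of all genes. Without marked identifiers they became 11 of the 24 members left, beside 24.4% of all genes. There were 6 members that crossed the limit, by these distances on the log2 scale. With the 90th percentile, S100a14 stood at 0.28 and S100a3 at 0.23, and with olfactory and vomeronasal receptors as background at 0.081 and 0.034. With the 99th percentile Lgals12 stood at -0.70 and Lgals4 at -0.52, and with keratin-associated proteins and taste receptors at -0.46 and -0.28. Lgals12 was at -0.96 with the mean of probe sets. With the lowest probe set Anxa1 was at -1.45, Anxa2 at -1.95 and Lgals12 at -2.08, and without marked identifiers Anxa2 was at -1.92. Arrays give no depth, and a lone array leaves the error of every level unknown.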

Other observations

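Family genes outside the rule were also read. Lgals1, galectin-1, had 29897 and 32341, Lgalsl, a galectin-like protein, had 2127 and 2214, and S100pbp, which binds an S100 protein, had probe sets at 963 and 21. Of 7 measured genes for other EF-hand proteins 4 were above the limit of 46.5, beside 62.8% of all genes, with levels from 13 to 4084. Pvalb, Calb1 and Calb2, calcium buffers of muscle and neurons, had 28, at most 13 and 31. Calb2 encodes calretinin, a protein used as a mesothelial marker, and its only probe set was below the limit. Rcn1, Rcn2, Sri and Efhd2, which are more widely expressed, reached 1227, 4084, 1452 and 3251.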
